A study of Mus musculus with 24 samples.

Results

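The expression of 8 genes that mark monocytes and interstitial macrophages was followed across mouse lung samples with and without 3 microRNAs, let-7a, let-7d and let-7f, in alveolar type 2 (AT2) cells, the surfactant-making cells of the alveolus. The genes were chosen by name: Csf1r, Cx3cr1, Itgam, Cd14, Mrc1, Adgre1, Ms4a7 and Ly6c2, 8 of the 24970 gene symbols listed. Control mice were Sftpc-CreER/+; R26-tdT/+, and knockout mice were let7afd-/-;Sftpc-CreER/+; R26-tdT/+. Both genotypes therefore carried the tamoxifen-activated Cre recombinase under the Sftpc promoter, which is active in AT2 cells, and a tdTomato reporter, and both received tamoxifen. RNA came from AT2 cells sorted by flow cytometry after 6 days of tamoxifen (3 libraries per genotype, each a pool of 3 mice), from whole lungs after 6 days of tamoxifen (3 mice per genotype), from whole lungs of 4 mice per genotype after booster tamoxifen for 6 months, and from organoids grown for 14 days in AMM medium from AT2 cells of 2 mice per genotype after 6 days of tamoxifen. Neither the age of the mice nor the sort markers are stated in the labels.

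Monocytes enter the lung from the blood and can mature into interstitial macrophages, which live in the tissue between the alveoli and the blood vessels, apart from the alveolar macrophages of the airspace. Macrophages and patrolling monocytes depend on CSF1R, the receptor for the growth factors CSF1 and IL-34, while CCR2 and CX3CR1 guide classical and patrolling monocytes respectively. Cre in this design acts in cells that express Sftpc, not in monocytes or macrophages as such.

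The deleted microRNAs share bases 2 to 8, the seed that pairs with target transcripts, and are shown because direct targets usually carry the complement of that seed in the 3′ UTR. The mature sequences, from RefSeq on GRCm38.p6 chromosome 13, are given with the seed in capitals.
mmu-let-7a-5p: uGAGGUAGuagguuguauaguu
mmu-let-7f-5p: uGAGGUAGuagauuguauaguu
mmu-let-7d-5p: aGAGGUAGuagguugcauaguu
In the longest annotated 3′ UTR of each of the 8 genes, the 8-base match CTACCTCA was found in 0. The 7-base matches CTACCTC and TACCTCA were searched as well, and 1 gene, Cx3cr1, held 1 of them. For comparison, 3.676% of 19914 mouse genes held the 8-base match and 16.772% held any of these matches. The Cx3cr1 match starts at base 1051 of a 3′ UTR of 2590 bases and stands in capitals below.
Cx3cr1 match: ttctagcatagTACCTCAgcaaggacttt

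All values were TPM, transcript levels scaled by transcript length and to a fixed sum per library, so levels can be set side by side between genes, while read depth is unknown. The precursor genes Mirlet7a-1, Mirlet7d and Mirlet7f-1 were listed at 0 in all 24 of the libraries, so these poly(A) RNA tables do not check the deletion. AT2 markers summed to 120605 to 204989 TPM in sorted cells, which is the labelled cell type, and pan-leukocyte markers to 9.55 to 93.6 TPM there. In organoids the AT2 markers summed to 12891 to 78376 TPM and the pan-leukocyte markers to 1.00 to 4.45 TPM. Knockout 3 of the lungs at 6 days stood apart, with 84804 TPM of erythrocyte markers and 859 TPM of endothelial markers. In the other lungs of that time erythrocyte markers ranged from 8786 to 45357 TPM and endothelial markers from 1593 to 2278 TPM, and results that rest on this library are given with and without it. Knockout was tested against control within each table on log2(TPM + 1) with limma, and a gene passed at a Benjamini-Hochberg adjusted p under 0.05 over all genes tested. Log2 changes are on that scale, which understates changes of low genes.

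In whole lung at 6 months, 6 of the 8 genes rose in the knockout, namely Ms4a7, Adgre1, Mrc1, Itgam, Cd14 and Csf1r, and 0 fell. Of all 14177 genes tested there, 15.9% rose and 13.9% fell. The same 6 genes were higher with no overlap between genotypes, as were 16.4% of all genes. In whole lung at 6 days Ms4a7 and Cd14 rose, 2 of 8 genes, against 3.16% of all genes tested, and 0 fell, against 3.79%. In sorted AT2 cells Cd14 and Mrc1 rose, 2 of 6 genes tested, against 6.62% of all genes, and 0 fell, against 1.22%. Organoids held enough transcript to test only Cd14 and Ly6c2, and 0 of these 2 passed in either direction, where 0.218% of all genes rose and 0.387% fell. At an unadjusted p under 0.05 the same limma test gave 6 members higher and 0 lower at 6 months. At 6 days it gave 5 higher and 1 lower (Ly6c2). In AT2 cells 6 were higher and 0 lower, and in organoids 0 were higher and 1 lower (Cd14). Of all genes tested, 5592 of 14177 had such a p in either direction at 6 months and 3563 of 14154 at 6 days. The share was 3296 of 12109 in AT2 cells and 4527 of 12406 in organoids. Cx3cr1 and Ly6c2 passed in none of the 4 comparisons. The median log2 change of all genes was -0.14 at 6 days, against 0.08 in AT2 cells, -0.0048 at 6 months and 0.06 in organoids, and with median-ratio scaling 4 members rose at 6 days, Adgre1 and Itgam in addition. Without knockout 3 of that time the same 4 rose and Ly6c2 fell, and without control 1 or control 3 the count was 0. The plot of log2 changes shows these calls side by side.

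**Figure D1:**
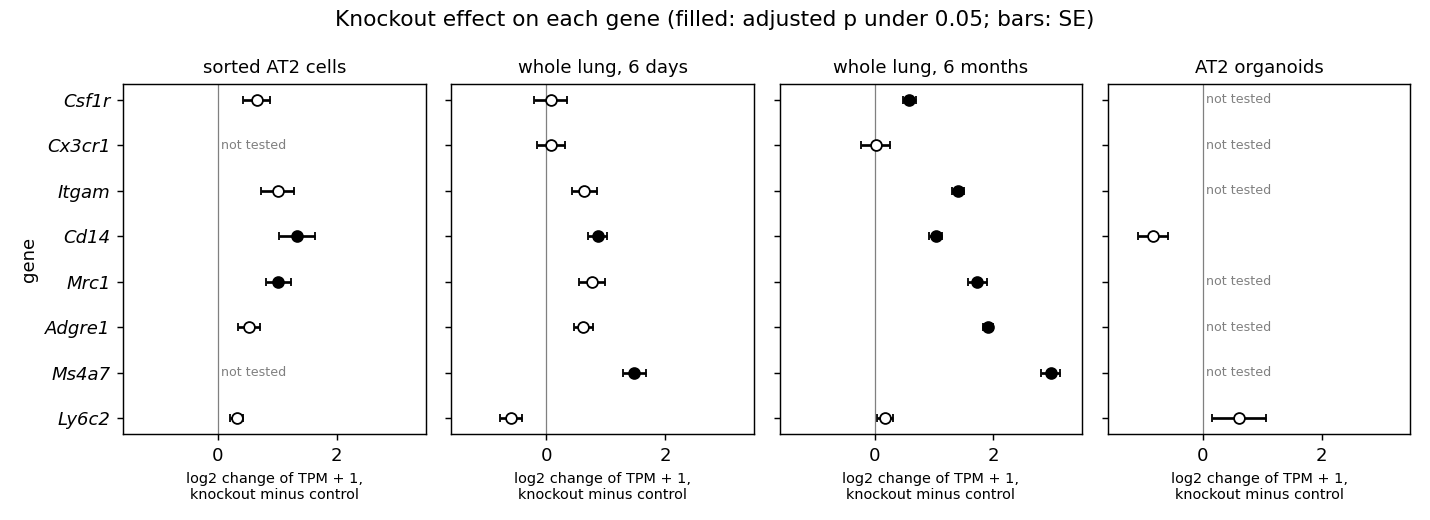
Log2 change of TPM + 1, knockout minus control, of the 8 genes in each of the 4 kinds of sample, with points for the fitted change and bars for its SE. Filled points passed an adjusted p under 0.05: 2 in sorted AT2 cells, 2 and 6 in whole lung at 6 days and 6 months, and 0 in organoids, where 6 genes were too low to test.

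In these whole lungs, fewer cells of a type and less RNA per cell cannot be told apart, and the same holds for more. Markers of other cell types moved alongside. Club and ciliated cell markers summed to 150004 to 173745 TPM in control and 69957 to 86348 TPM in knockout lungs at 6 days (3 of 6 fell), and to 173842 to 217359 TPM and 97064 to 111753 TPM at 6 months (5 of 6 fell). AT2 markers summed to 36837 to 43240 TPM in control and 17210 to 20756 TPM in knockout lungs at 6 days (2 of 8 fell), and to 21376 to 23125 TPM and 23890 to 29746.5 TPM at 6 months (5 of 8 rose). Alveolar macrophage markers summed to 1538 to 1835 TPM in control and 3532 to 12913 TPM in knockout lungs at 6 days, with 3 of 12 markers risen and 4 fallen. At 6 months the same sum was 772 to 1063 TPM in control and 4064 to 7724 TPM in knockout, with 6 of 12 risen and 4 fallen. Pan-leukocyte markers went from 1284 to 1594 TPM up to 2070 to 2407 TPM at 6 days (2 of 6 rose) and from 951 to 1247 TPM up to 2294 to 2544 TPM at 6 months (4 of 6 rose). No marker of these 4 lists was at 0 in whole lung. Several of the 8 genes, Csf1r, Mrc1 and Adgre1 among them, are also expressed by alveolar macrophages, and the part of these cells, or of the other types, in the changes was not tested.

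Csf1r encodes the CSF1 receptor and lies on chromosome 18 (GRCm38, 61100598 to 61132149, plus strand). At 6 months control lungs held 77.8, 69.5, 77.9 and 82.0 TPM, and knockout lungs held 117, 104, 147 and 99.0 TPM. All knockout lungs lay above all control lungs, and the log2 change was 0.58 ± 0.11 (SE, n = 4 and 4, limma adjusted p = 0.00182), a 1.52-fold ratio of the means. At 6 days control lungs held 119, 149.5 and 105 TPM and knockout lungs held 163, 159.8 and 83.2 TPM, so the groups overlapped, with knockout 3 the lowest of the 6. The log2 change at that time was 0.07 ± 0.27 (limma adjusted p = 0.884), or 0.39 without knockout 3 (adjusted p = 0.123), and it passed only with library weights (0.42, adjusted p = 0.00294). Exons of Csf1r overlap those of Hmgxb3 on the opposite strand. Hmgxb3 was at 6.85 to 14.1 TPM at 6 days and 14.4 to 16.9 TPM at 6 months, and since the libraries did not keep strand, its reads cannot be told apart from Csf1r reads in the overlap.

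Cx3cr1, the receptor for the membrane-bound chemokine fractalkine, is on chromosome 9 (119901616 to 120069879, minus strand). Its level at 6 months was 15.2, 14.9, 15.7 and 17.0 TPM in control lungs and 13.1, 10.2, 30.2 and 15.6 TPM in knockout lungs. The knockout values enclosed the control values, with knockout 3 high and knockout 2 low. The log2 change was 0.02 ± 0.25 (limma adjusted p = 0.968), and without knockout 3 it was -0.28 (adjusted p = 0.139). At 6 days, control lungs held 23.5, 31.1 and 23.8 TPM and knockout lungs 33.3, 32.8 and 18.9 TPM, again overlapping, with a log2 change of 0.08 ± 0.24 (limma adjusted p = 0.852) that passed only with library weights (0.38, adjusted p = 0.00359). Its only let-7 seed match is the one printed above, and the gene has a neighbour with overlapping antisense exons, Gm33858, whose reads cannot be told apart from its own.

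Itgam encodes CD11b, the alpha chain of an integrin that binds complement and adhesion molecules, and is on chromosome 7 (128062640 to 128118491, plus strand). Control lungs at 6 months held 12.1, 12.2, 14.0 and 13.6 TPM and knockout lungs held 44.9, 31.3, 34.7 and 34.7 TPM. The groups were far apart, with a log2 change of 1.41 ± 0.11 (limma adjusted p = 2.67e-06) and a 2.80-fold ratio of the means. At 6 days the levels were 26.2, 30.6 and 22.3 TPM in control and 43.5, 50.6 and 32.2 TPM in knockout. The groups did not overlap, as for 12.5% of all genes in this direction, but the log2 change of 0.64 ± 0.21 did not pass (limma adjusted p = 0.102). It passed without knockout 3, at 0.82 (adjusted p = 0.0161), and under median-ratio scaling, at 0.80 (adjusted p = 0.0174). Reads of Gm49368, whose exons overlap on the same strand, cannot be told apart from those of Itgam. Neutrophils also carry CD11b; neutrophil markers summed to 334 to 590 TPM in control and 340 to 569 TPM in knockout lungs at 6 months, with 1 of 6 tested markers risen.

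Cd14, the co-receptor that hands lipopolysaccharide to TLR4, is on chromosome 18 (36725067 to 36726798, minus strand). Control lungs at 6 days held 45.2, 59.2 and 43.8 TPM, and knockout lungs held 91.3, 89.4 and 89.3 TPM. The knockout values lay close together and above every control, and Cd14 rose by 0.87 ± 0.16 (log2, limma adjusted p = 0.0187), a 1.82-fold ratio. This call was lost when control 1 (adjusted p = 0.122), control 3 (0.116) or knockout 2 (0.0703) was left out, with changes of 0.79 to 0.87 in those fits. At 6 months control lungs were at 26.2, 28.2, 36.1 and 32.3 TPM and knockout lungs at 65.6, 62.0, 70.0 and 55.8 TPM. No values overlapped, and the log2 change was 1.03 ± 0.10 (limma adjusted p = 2.25e-05), 2.06-fold. Cd14 was also high in sorted AT2 cells, at 93.4 ± 36.2 TPM in control and 237 ± 89.8 TPM in knockout (SD, n = 3). In organoids, where leukocyte transcripts were close to absent, it was at 246 ± 78.7 and 134 ± 12.1 TPM (SD, n = 2). The part of AT2 cells in the whole lung values of Cd14 was not tested.

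Mrc1 encodes the mannose receptor CD206 and is on chromosome 2 (14229392 to 14332057, plus strand). Its level at 6 months was 17.999, 14.3, 21.8 and 17.9 TPM in control and 50.7, 75.1, 75.1 and 49.95 TPM in knockout lungs. Each knockout lung exceeded each control more than 2-fold, and the log2 change was 1.73 ± 0.16 (limma adjusted p = 1.14e-05), 3.49-fold. At 6 days, control lungs held 38.6, 34.5 and 38.5 TPM and knockout lungs held 75.6, 44.9 and 76.5 TPM. Knockout 2 stood nearest to the controls. The groups did not overlap, yet the log2 change of 0.76 ± 0.22 did not pass (limma adjusted p = 0.0761), and it passed only when knockout 2 was left out (1.01, adjusted p = 0.0374) or libraries were weighted (0.25, adjusted p = 0.0316).

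Adgre1 encodes F4/80, an adhesion receptor on the surface of mouse macrophages, and lies on chromosome 17 (57358691 to 57483527, plus strand). Control lungs at 6 months held 15.7, 16.5, 17.4 and 16.7 TPM and knockout lungs held 71.6, 66.6, 67.0 and 55.7 TPM. The controls were tightly grouped and the lowest knockout lung was above 3 times the highest control. The log2 change was 1.91 ± 0.08 (limma adjusted p = 2.89e-08), 3.93-fold. At 6 days, the levels were 33.7, 35.2 and 31.99 TPM in control and 61.9, 48.9 and 47.7 TPM in knockout. The groups did not overlap, and the log2 change of 0.63 ± 0.16 missed the threshold (limma adjusted p = 0.0518). It passed without knockout 3 (0.69, adjusted p = 0.0156) and under median-ratio scaling (0.78, adjusted p = 0.0138).

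Ms4a7 encodes a membrane protein of the MS4A family found in interstitial macrophages more than in monocytes, on chromosome 19 (11321039 to 11336146, minus strand). At 6 days it was at 11.1, 14.5 and 10.6 TPM in control and 42.2, 28.9 and 36.1 TPM in knockout lungs. It rose by 1.49 ± 0.20 (log2, limma adjusted p = 0.00778), 2.96-fold, with no overlap. That call was lost without control 1 (1.44, adjusted p = 0.0593) and without control 3 (1.41, adjusted p = 0.0507). Control lungs at 6 months held 6.48, 8.66, 8.49 and 11.2 TPM, and knockout lungs held 95.2, 78.9, 62.7 and 62.7 TPM. This was the widest separation among the 8 genes at that time, a log2 change of 2.97 ± 0.16 (limma adjusted p = 1.92e-07) and an 8.61-fold ratio of the means.

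Ly6c2 encodes a Ly-6C antigen, a surface protein at its highest on classical monocytes, and is on chromosome 15 (75108158 to 75111970, minus strand). Its transcript was identical to that of the neighbouring paralog Ly6c1 at 802 of 822 aligned bases, and 32.6% of its 50-base windows occur in Ly6c1 unchanged. Reads from one can thus be counted for the other, and Ly6c2 values are uncertain. Control lungs at 6 days held 79.6, 60.6 and 65.1 TPM and knockout lungs held 48.5, 36.4 and 50.2 TPM. Every knockout lung was below every control, as for 23.7% of all genes, but the log2 change of -0.60 ± 0.18 did not pass (limma adjusted p = 0.0884) unless knockout 3 was left out (-0.68, adjusted p = 0.0357) or libraries were weighted (-0.91, adjusted p = 2.24e-05). At 6 months the levels were 72.5, 67.3, 55.9 and 64.9 TPM in control and 69.1, 60.2, 67.9 and 102 TPM in knockout, overlapping but for knockout 4, with a log2 change of 0.17 ± 0.14 (limma adjusted p = 0.410).

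**Figure D2:**
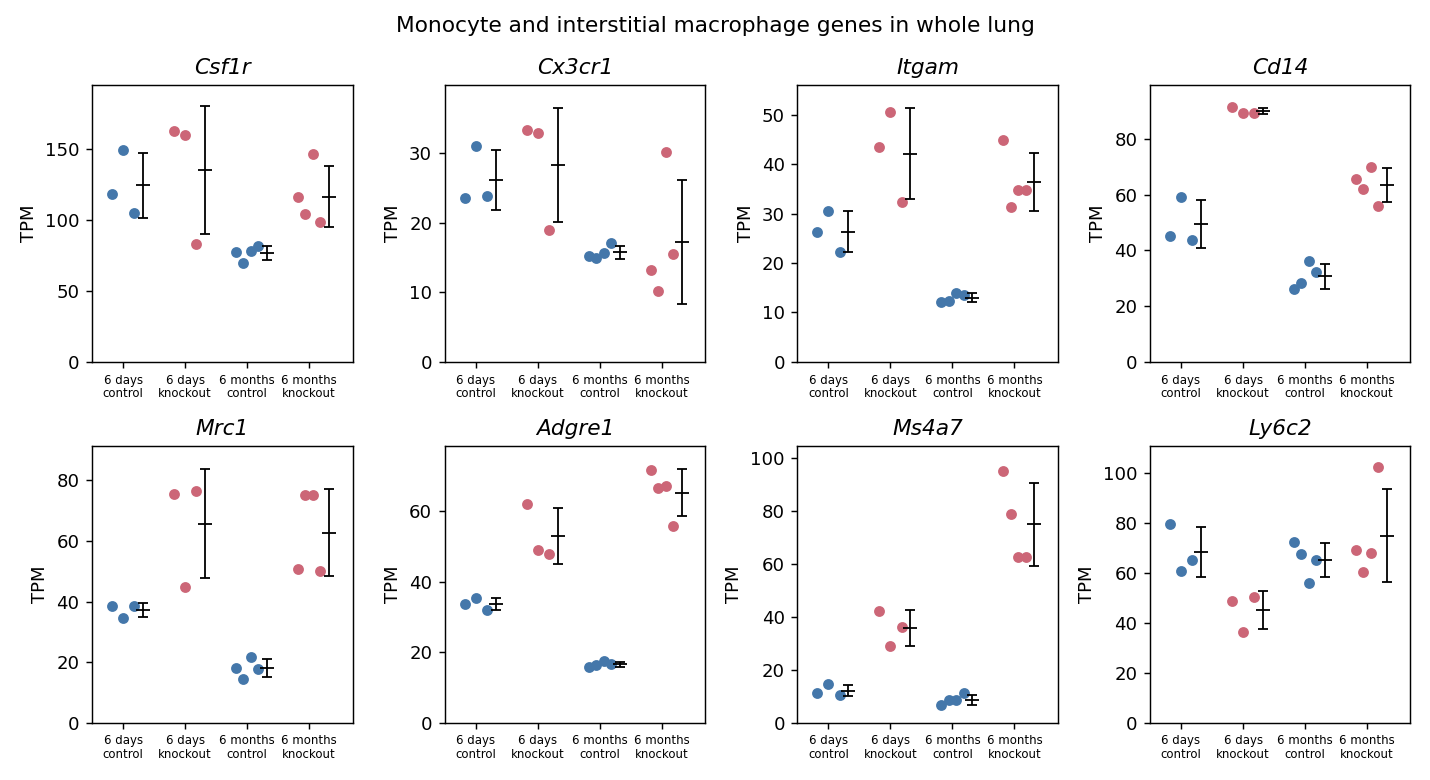
TPM of each of the 8 genes in every whole lung library, control in blue and knockout in red, at 6 days (n = 3 and 3) and 6 months (n = 4 and 4); points are mice and black bars the mean ± SD. At 6 months the groups did not overlap for Csf1r, Itgam, Cd14, Mrc1, Adgre1 and Ms4a7, while Cx3cr1 and Ly6c2 overlapped at that time.

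The knockout effect was larger at 6 months than at 6 days for Adgre1, by 1.28 ± 0.18 on the log2 scale (adjusted p = 0.00222), and for Ms4a7, by 1.48 ± 0.26 (adjusted p = 0.00373). These p-values come from contrasting the limma effects of both tables, each with its own spread. Of 13875 genes so compared, 2.38% had a larger and 0.353% a smaller value at 6 months. The other 6 genes did not pass: the differences were 0.97 for Mrc1 (adjusted p = 0.0731), 0.76 for Itgam (0.122), 0.77 for Ly6c2 (0.0927), 0.51 for Csf1r (0.447), 0.16 for Cd14 (0.694) and -0.06 for Cx3cr1 (0.939). Without knockout 3 of the 6-day lungs 4 genes passed, Mrc1 (1.10) and Ly6c2 (0.86) in addition. Levels themselves were not tested between the tables, which hold different mice and tamoxifen courses.

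The order of the levels differed between the genotypes at 6 months. In control lungs Csf1r was highest (76.8 ± 5.21 TPM, SD, n = 4), followed by Ly6c2 (65.1 ± 6.93), Cd14 (30.7 ± 4.43), Mrc1 (17.996 ± 3.07), Adgre1 (16.6 ± 0.722), Cx3cr1 (15.7 ± 0.936), Itgam (12.98 ± 0.959) and, lowest, Ms4a7 (8.70 ± 1.92). Neighbours whose ranges overlapped there were Csf1r and Ly6c2, Mrc1 and Adgre1, and Adgre1 and Cx3cr1. In knockout lungs Csf1r was highest (117 ± 21.2 TPM). Ms4a7 (74.9 ± 15.6), Ly6c2 (74.9 ± 18.7), Adgre1 (65.2 ± 6.74), Cd14 (63.4 ± 5.98) and Mrc1 (62.7 ± 14.3) followed with overlapping ranges, then Itgam (36.4 ± 5.88) and Cx3cr1 (17.3 ± 8.90).

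Relative to Ptprc, the transcript of the pan-leukocyte protein CD45, the same genes stood apart in whole lung. At 6 months TPM per Ptprc TPM of Ms4a7 ran from 0.128 to 0.170 in control and 0.576 to 1.13 in knockout lungs, and that of Adgre1 from 0.218 to 0.322 and 0.615 to 0.950. Mrc1, Itgam and Cd14 were also higher per Ptprc with no overlap, at both times. Csf1r per Ptprc overlapped between genotypes at 6 months, at 1.07 to 1.54 in control and 1.27 to 1.49 in knockout, and so did Cx3cr1 and Ly6c2. At 6 days, Ly6c2 per Ptprc was lower with no overlap, at 0.693 to 0.968 in control and 0.387 to 0.635 in knockout. These ratios are descriptions with no test, and they were not computed for all genes. Cd14 and Ly6c2 were also high in sorted AT2 cells, so their values per Ptprc need not describe leukocytes.

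Over the 14 whole lung libraries, with each table centred on its own mean, the log2 levels of Adgre1 and Ms4a7 had a Pearson r of 0.98, and Adgre1 had an r of 0.94 with Mrc1, 0.96 with Itgam and 0.91 with Cd14. Csf1r had an r of 0.70 with Adgre1 and 0.61 with Cx3cr1. Cx3cr1 and Ly6c2 had an r of 0.07 and -0.01 with Adgre1. All these points share the genotype contrast, so the values describe the libraries and are given with no p.

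In sorted AT2 cells the 8 genes fell into a high pair and 6 low genes. Cd14 was at 75.1, 70.2 and 135 TPM in control and 201, 171 and 339 TPM in knockout pools, all knockout pools being above all controls. It rose by 1.33 ± 0.30 (log2, limma adjusted p = 0.0392), 2.53-fold. Ly6c2 was at 81.5, 73.8 and 62.0 TPM in control and 82.8, 90.5 and 96.7 TPM in knockout, a log2 change of 0.32 ± 0.11 that did not pass (limma adjusted p = 0.121). Cd14 and Ly6c2 together made up 93.8% to 96.3% of the summed TPM of the 8 genes in these libraries, against 24.9% to 41.2% in whole lung at 6 months.

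Mrc1 in the sorted cells was at 1.21, 0.641 and 1.72 TPM in control and 3.07, 2.92 and 4.10 TPM in knockout, a rise of 1.01 ± 0.21 (log2, limma adjusted p = 0.0320) at a level far under that in whole lung. Itgam was at 0.212 to 1.13 TPM in control and 1.60 to 3.61 TPM in knockout (log2 change 1.01 ± 0.28, limma adjusted p = 0.0687). Adgre1 (0.556 to 1.06 TPM, then 1.29 to 1.94 TPM; adjusted p = 0.118 by limma) did not pass either. Csf1r was at 4.14 to 6.15 TPM in control and 5.98 to 11.6 TPM in knockout (limma adjusted p = 0.119). Of the 8 genes, 5 were higher in knockout pools with no overlap, against 25.4% of all genes tested, and 0 lower, against 8.31%. Cx3cr1 reached at most 1.22 TPM and Ms4a7 0.125 TPM, and both were too low to test.

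Markers of leukocytes moved with these values in the sort. Ptprc was at 3.37, 0.999 and 2.24 TPM in control and 5.02, 4.48 and 10.1 TPM in knockout pools, and knockout 3 was the highest of the 6 for Ptprc and for each of the 8 genes but Ms4a7. Pan-leukocyte markers summed to 9.55 to 39.5 TPM in control and 54.0 to 93.6 TPM in knockout, with 2 of 6 risen. Alveolar macrophage markers summed to 30.2 to 61.3 TPM and 142 to 262 TPM, with 3 of 12 risen, and none of either list was at 0 in every library. Erythrocyte markers summed to 81.3 to 160.0 TPM in control and 285 to 481 TPM in knockout, with 2 of 5 risen. Per Ptprc, Mrc1 overlapped between genotypes (0.359 to 0.768 in control, 0.408 to 0.653 in knockout), as did Cd14, while Adgre1, Cx3cr1, Csf1r and Ly6c2 were lower and Itgam higher with no overlap. Ptprc itself was higher in every knockout pool than in every control pool, so a transcript that did not change can come out lower per Ptprc. These ratios were not computed for all genes and were not tested. The part of leukocytes and erythrocytes in the sort was not tested. The calls of Cd14 and Mrc1 were both lost without control 1 (adjusted p = 0.107 and 0.0761), control 2 (0.143 and 0.102), knockout 1 (0.0666 and 0.0624) or knockout 3 (0.0996 and 0.109).

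**Figure D3:**
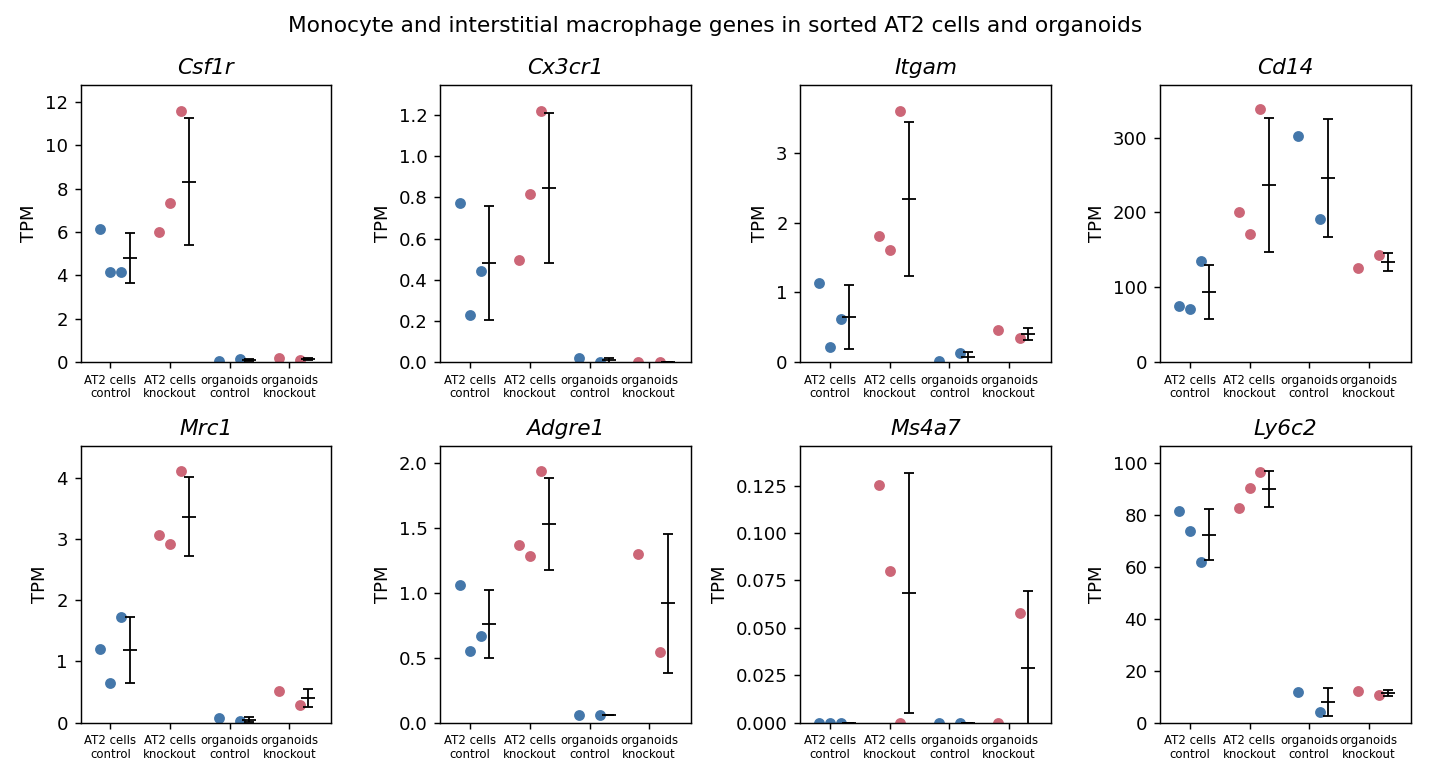
TPM of each of the 8 genes in every library of sorted AT2 cells (n = 3 and 3) and AT2 organoids (n = 2 and 2), control in blue and knockout in red, with black bars for the mean ± SD, cut at 0. Cd14 and Ly6c2 were the only genes above 12 TPM, and Cd14 was between 126 and 302 TPM in organoids.

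Set against whole lung at the same 6 days, 0 of 6 genes tested had a different effect in sorted AT2 cells, where 0.705% of all 11766 genes compared had a larger and 0.357% a smaller one. At an unadjusted p under 0.05 in the same contrast of limma effects 1 gene differed, Ly6c2 (0.91 ± 0.21, adjusted p = 0.0603). It passed without AT2 control 1, AT2 knockout 1 or 6-day knockout 3 (0.97 to 1.00). The log2 changes of Cd14 were 1.33 in AT2 cells and 0.87 in lung (difference adjusted p = 0.474), and those of Mrc1 were 1.01 and 0.76 (0.666).

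Cd14 was expressed in organoids, where leukocyte transcripts were close to absent. Control organoids held 302 and 191 TPM of Cd14 and knockout organoids held 126 and 143 TPM, while Ptprc was at 0.0830 and 0.0566 TPM in control and 0.156 and 0.237 TPM in knockout. Both knockout values lay below both controls, as for 32% of all genes, and the log2 change of -0.84 ± 0.25 did not pass (limma adjusted p = 0.1004). When control 1 or control 2 was left out it passed, at -0.51 (adjusted p = 0.0227) and -1.17 (adjusted p = 0.00805), in fits where the lone control is assumed to vary like the other libraries. Ly6c2 was at 11.7 and 4.24 TPM in control and 12.3 and 10.6 TPM in knockout (log2 change 0.61 ± 0.45, limma adjusted p = 0.371), and it passed without control 1 (1.24, adjusted p = 0.00469). Ly6c1, its paralog, was at 270 ± 77.7 TPM in control and 175 ± 11.95 TPM in knockout organoids (SD, n = 2). The part of Ly6c1 reads in the Ly6c2 values was not tested.

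The other 6 genes were near 0 in organoids. Adgre1 was at 0.0613 and 0.0621 TPM in control and 1.30 and 0.543 TPM in knockout, Mrc1 at 0.0761 and 0.0258 TPM and then 0.512 and 0.296 TPM, and Itgam at 0.0135 and 0.123 TPM and then 0.457 and 0.339 TPM. These 3 were higher in both knockout organoids, as were 39.6% of all genes tested, but at levels too low for the test. Csf1r did not exceed 0.167 TPM, Ms4a7 was above 0 in 1 library (0.0576 TPM), and Cx3cr1 was above 0 in 1 (0.0169 TPM).

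Promoters are shown for 3 genes that rose together in whole lung at 6 months, Ms4a7, Mrc1 and Itgam, and for Cx3cr1, whose change did not pass. Each runs from 250 bases before to 50 after the transcript start (RefSeq, GRCm38.p6, first start listed, 5′ to 3′ on the gene's strand). Their positions are chr19:11336097-11336396 (minus strand), chr2:14229164-14229463 (plus), chr7:128062390-128062689 (plus) and chr9:120068247-120068546 (minus). Capitals mark GAGGAA or its reverse complement TTCCTC, the core of the site bound by PU.1, the myeloid transcription factor that Spi1 encodes.
Ms4a7: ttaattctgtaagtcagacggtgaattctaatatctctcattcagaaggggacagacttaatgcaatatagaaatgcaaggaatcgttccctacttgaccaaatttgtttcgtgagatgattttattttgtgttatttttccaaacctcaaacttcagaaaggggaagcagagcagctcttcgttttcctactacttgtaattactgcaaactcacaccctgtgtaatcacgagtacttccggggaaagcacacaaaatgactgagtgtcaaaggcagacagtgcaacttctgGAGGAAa
Mrc1: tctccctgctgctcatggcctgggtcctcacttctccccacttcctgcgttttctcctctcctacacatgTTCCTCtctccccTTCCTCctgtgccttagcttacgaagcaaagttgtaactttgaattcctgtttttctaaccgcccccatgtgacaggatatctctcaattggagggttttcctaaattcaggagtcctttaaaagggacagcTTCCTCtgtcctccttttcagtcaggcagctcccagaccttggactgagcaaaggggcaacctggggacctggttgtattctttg
Itgam: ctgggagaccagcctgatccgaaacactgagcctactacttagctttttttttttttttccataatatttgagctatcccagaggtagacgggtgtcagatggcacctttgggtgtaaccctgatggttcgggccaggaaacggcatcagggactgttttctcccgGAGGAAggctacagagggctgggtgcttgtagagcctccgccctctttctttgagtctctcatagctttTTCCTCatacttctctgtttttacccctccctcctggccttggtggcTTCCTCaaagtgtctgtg
Cx3cr1: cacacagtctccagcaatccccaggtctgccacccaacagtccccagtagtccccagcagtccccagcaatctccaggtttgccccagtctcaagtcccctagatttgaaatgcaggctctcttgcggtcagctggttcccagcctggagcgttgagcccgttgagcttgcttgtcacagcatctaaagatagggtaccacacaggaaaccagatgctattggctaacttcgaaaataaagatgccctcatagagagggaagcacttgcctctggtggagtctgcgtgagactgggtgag
The core, searched on both strands, occurred 1 time for Ms4a7, 3 times for Mrc1, 3 times for Itgam and 0 times for Cx3cr1, and 28.272% of 32817 promoters of this length held it. The 1 match for Ms4a7 lay after the transcript start, and the second start listed for Ms4a7, not shown, held 0. The longer GAGGAAGT, which contains the core, was in none of these 4 windows and in 3.203% of all promoters. Ly6c2, which did not pass and whose promoter is not shown, held it 2 times. No promoter was searched for Adgre1, Csf1r and Cd14, which also rose at 6 months. A match is only a match of letters in the window.

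Among the ligands and partners of these receptors, 7 of 11 rose and 1 fell in whole lung at 6 months. There, 15.9% of all genes rose and 13.9% fell. The beta chain that pairs with CD11b, Itgb2, rose from 71.2 ± 4.11 to 403 ± 21.9 TPM (log2 change 2.48 ± 0.06, limma adjusted p = 7.64e-10). Itgax, the alpha chain CD11c of the related integrin, rose from 23.4 ± 3.21 to 219 ± 23.9 TPM (3.17 ± 0.10, adjusted p = 3.22e-09). For the CSF1 receptor, the ligand Il34 rose from 16.5 ± 1.80 to 23.1 ± 2.16 TPM (0.46, limma adjusted p = 0.00398), and Csf1 was at 38.6 ± 4.32 and 43.5 ± 5.67 TPM (limma adjusted p = 0.291). The CD14 partners Tlr4 (0.48, limma adjusted p = 0.00170), Ly96 (0.83, 0.00123) and Lbp (0.45, 0.000927) rose at that time. Cx3cl1, the ligand of CX3CR1, fell from 42.7 ± 5.24 to 35.6 ± 1.02 TPM (-0.25, limma adjusted p = 0.0425), a call that was lost without any 1 of the libraries except control 2 (adjusted p 0.0135 to 0.0997).

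The monocyte chemokine Ccl2 rose in whole lung at both times. At 6 days its level was 15.1 ± 14.2 TPM in control and 80.3 ± 34.2 TPM in knockout (log2 change 2.59 ± 0.57, limma adjusted p = 0.0346), and at 6 months 3.79 ± 0.990 and 10.2 ± 3.21 TPM (1.20 ± 0.21, adjusted p = 0.00140). Ccl7, a second ligand of CCR2, rose at 6 days from 7.62 ± 4.91 to 37.3 ± 17.7 TPM (2.20, limma adjusted p = 0.0233) and did not pass at 6 months (0.56, adjusted p = 0.123). Their receptor Ccr2 was at 39.3 ± 4.20 and 43.1 ± 20.4 TPM at 6 days and 25.9 ± 2.33 and 22.8 ± 3.07 TPM at 6 months, with adjusted p of 0.962 and 0.227 by limma. Of the 11 partners, 3 rose and 0 fell at 6 days, against 3.16% and 3.79% of all genes tested. The third that rose was Itgb2 (0.99, limma adjusted p = 0.0145). The count of risen partners was 0 without control 1, control 3 or knockout 2. It was 4 without knockout 3, where Ccl2 missed the threshold (adjusted p = 0.0501). In sorted AT2 cells Itgb2 (3.94 ± 1.34 to 14.99 ± 5.43 TPM, adjusted p = 0.0138) and Itgax (1.17 ± 0.426 to 3.49 ± 0.851 TPM, 0.0272) rose by limma, 2 of 8 tested, against 6.62% of all genes. Without control 2 that count was 0, and Itgax was also lost without control 1, control 3 or knockout 3 (adjusted p 0.0555 to 0.0921). Organoids gave 0 of 7 tested, with 0 higher and 4 lower at an unadjusted limma p under 0.05. Of all 12406 genes tested in organoids, 4527 had such a p in either direction. The lowest p among the partners was that of Ccl2 (10.2 ± 2.06 and 1.75 ± 0.851 TPM, limma adjusted p = 0.0600).

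Of 18 further genes of interstitial and other tissue macrophages, 12 rose and 2 fell at 6 months. With a library left out, 9 to 11 rose and 2 fell. Among all genes tested, 15.9% rose and 13.9% fell. The median log2 change of the 18 genes was 0.74 against -0.0048 for all genes tested. Cd68, a lysosomal glycoprotein of macrophages, went from 50.6 ± 4.88 to 758 ± 77.4 TPM (log2 change 3.88, limma adjusted p = 6.41e-10). Apoe rose from 883 ± 93.9 to 2447 ± 334 TPM (1.46, adjusted p = 1.41e-06 by limma), and the complement gene C1qb from 95.5 ± 23.6 to 289 ± 14.99 TPM (1.62, 6.24e-06). Those that fell were Lyve1 and Tmem119. Lyve1 marks a perivascular subset of interstitial macrophages and also lymphatic and lung capillary endothelium. General endothelial markers summed to 2128 to 2314 TPM in control and 1423 to 1560 TPM in knockout at that time, with 5 of 6 fallen. Which cells the fall of Lyve1 came from was not tested. Folr2 and Cd163, of the perivascular macrophage subset, did not pass (0.08 and -0.08, limma adjusted p = 0.680 and 0.759).

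At 6 days 5 of these 18 genes rose, with 1 to 7 when a library was left out (1 without control 1 or control 3, 2 without knockout 2), and 1, Lyve1, fell. At that time 3.16% of all genes rose and 3.79% fell. The fall of Lyve1 (-1.24, limma adjusted p = 0.0337) was lost when control 1, control 2, control 3 or knockout 2 was omitted (adjusted p of 0.145, 0.0805, 0.152 and 0.0917) and with no filter (0.0552), and the count of fallen genes was 0 to 2 with a library left out. The smallest p-values were those of Cd68 (113 ± 36.2 to 376 ± 45.6 TPM, limma adjusted p = 0.00644), C5ar1 (20.2 ± 2.12 to 39.6 ± 1.68 TPM, 0.0133) and Pf4 (51.9 ± 7.30 to 104 ± 15.4 TPM, 0.0154). In AT2 cells only Cd68 rose of 10 tested, against 6.62% of all genes. Its level went from 15.8 ± 2.18 to 34.1 ± 8.26 TPM (limma adjusted p = 0.0142), and it did not pass without control 2 (adjusted p = 0.0709). Organoids gave 0 of 4 tested by limma, with 0 higher and 1 lower at an unadjusted p under 0.05. Such a p was held by 4527 of all 12406 genes in either direction. Of the 18 genes, 5 (Folr2, Cd163, Fcgr1, Tmem119 and Cd86) were listed at 0 in every organoid.

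Of 12 other monocyte genes, 1 rose and 3 fell at 6 months, where 15.9% of all genes rose and 13.9% fell, and their median log2 change was -0.21 against -0.0048 for all genes tested. Fcgr4, an Fc receptor of patrolling monocytes and macrophages, rose from 15.7 ± 2.07 to 51.7 ± 6.503 TPM (1.66, limma adjusted p = 9.71e-07). Among those that fell, Ly6c1 went from 631 ± 81.5 to 463 ± 25.2 TPM (-0.44, limma adjusted p = 0.00222). Ly6c1 was also high in organoids, where leukocyte transcripts were close to absent, so it is not particular to monocytes in these data. Which cells its fall in whole lung came from was not tested. Ace, also an endothelial gene, fell by 0.19 (limma adjusted p = 0.0168), and missed the threshold without knockout 1 or 2 (adjusted p = 0.0503 and 0.0512). Without knockout 3, 6 of these genes fell, and without knockout 2 the count was 2. At 6 days Fcgr4 alone rose of 12 tested, against 3.16% of all genes. Its level went from 24.9 ± 2.46 to 57.4 ± 17.3 TPM (limma adjusted p = 0.0271), and it did not pass when any 1 of the controls was left out. In AT2 cells Fcgr4, Cd300e and Ly6c1 rose, 3 of 8 tested, against 6.62% of all genes, with limma adjusted p of 0.0418 to 0.0492. With a library left out 0 to 2 of them rose (0 without any 1 of the controls or knockout 3). Organoids gave 0 of 4, with 1 lower at an unadjusted limma p under 0.05, where 4527 of all 12406 genes had such a p in either direction.

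Knockout 3 of the lungs at 6 months was the highest of the 4 knockout lungs for 3 of the 8 genes and for 8 of the 12 other monocyte genes. It exceeded the next knockout lung 1.94-fold for Cx3cr1, 3.85-fold for Cd300e, 2.94-fold for Treml4, 2.44-fold for Eno3, 1.80-fold for Spn and 1.69-fold for Ms4a4c. Treml4, Cd300e, Spn and Eno3 are, like Cx3cr1, known from patrolling monocytes, and these genes were picked out after their values were seen. Ms4a4c is not counted among them here. Nor are Plac8 (1.11-fold above the next), Ifitm6 (1.29-fold) and Ly6c1 (1.08-fold), for which knockout 3 was also the highest. Other genes of patrolling monocytes had another lung on top: Fcgr4 was highest in knockout 2 and Ace in knockout 4. For Ly6c2, knockout 4 was the highest, 1.48-fold above the next. The plot of monocyte genes relative to the control mean shows each lung's value.

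**Figure D4:**
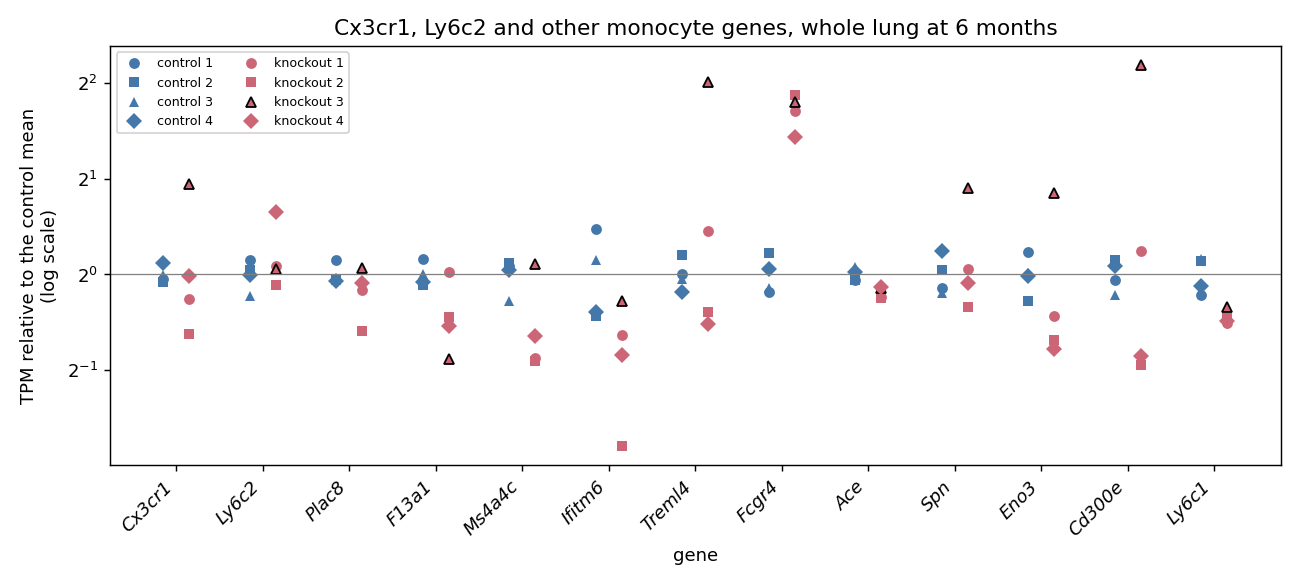
TPM of Cx3cr1, Ly6c2 and 11 of the other monocyte genes in each whole lung library at 6 months (n = 4 and 4) divided by the mean of the 4 controls, on a log axis, with 1 symbol shape per replicate number. Knockout 3 (outlined triangle) was highest of the 4 knockout lungs for Cx3cr1, Treml4, Spn, Eno3, Cd300e, Plac8, Ms4a4c, Ifitm6 and Ly6c1. All 4 knockout lungs were above the controls for Fcgr4.

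Of 10 transcription factors of the monocyte and macrophage lineage, 6 rose and 1 fell at 6 months. The shares of all genes tested were 15.9% risen and 13.9% fallen. Spi1, which encodes PU.1, rose from 39.8 ± 1.72 to 116 ± 12.2 TPM (log2 change 1.51 ± 0.07, limma adjusted p = 8.43e-08). Cebpa rose from 95.0 ± 6.86 to 137 ± 8.27 TPM (0.52, adjusted p = 0.000120 by limma), and AT2 cells express it too. Klf4 fell at that time from 149 ± 27.1 to 102 ± 17.3 TPM (-0.54, limma adjusted p = 0.0130), and Nr4a1, required for patrolling monocytes, was at 37.2 ± 25.8 and 42.0 ± 34.7 TPM (limma adjusted p = 0.949). At 6 days Spi1 alone rose of 10 tested, against 3.16% of all genes. It went from 67.7 ± 8.84 to 121 ± 5.50 TPM (0.83, limma adjusted p = 0.0161). It did not pass without control 1, control 3 or knockout 2 (adjusted p 0.0700 to 0.108). Spi1 was also the 1 factor that rose of 10 tested in AT2 cells, against 6.62% of all genes. It went there from 2.25 ± 0.582 to 6.77 ± 2.86 TPM (1.21, limma adjusted p = 0.0351). It did not pass in AT2 cells without control 1, 2 or 3, knockout 2 or knockout 3. Organoids gave 0 of 6 tested by limma, with 1 higher and 2 lower at an unadjusted p under 0.05. There 4527 of all 12406 genes had such a p in either direction.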

How the data were processed

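Poly(A)-selected libraries that do not keep strand were made from 24 samples, per the labels. The authors deposited TPM values in 4 tables, 1 for each kind of sample. The submitters' processing notes name the GRCm38 genome; which aligner and quantification tool were used is not given in the sources read here. TPM hold no read counts, which leaves depth and counting error unknown. Of 24972 rows per table, 2 that repeated a symbol were left out. Of 24970 symbols, 24464 matched GENCODE M21, the source of coordinates and 3′ UTRs.

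Knockout was compared with control in each table separately, with limma 3.58.1 (R 4.3.3) applied to log2(TPM + 1). Genotype was the sole term, the variance prior followed a trend, tests were two-sided and p-values were adjusted by Benjamini-Hochberg over all genes tested. Genes entered a test with at least 1 TPM in a number of libraries equal to the smaller group. Differences between tables contrasted the effects with separate spreads. On simulated data with log2 changes of 1, 90% of changed genes were recovered for AT2 cells, 36% for lungs at 6 days, 97% at 6 months and 0% in organoids. The 6-month minus 6-day contrast recovered 52.3%, with 30 false among 236 calls. Changed genes were drawn only from those with a control level above 5 TPM, and noise was independent between libraries. In AT2 cells Csf1r (mean 4.81 TPM in control), Mrc1 (1.19), Adgre1 (0.761) and Itgam (0.650) lay below that level. The 90% therefore does not apply to these 4 genes.

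The members, the lists and the alternatives were chosen with earlier results of these data known. All 8 members and the 11 ligands and partners could be named; of each further list, up to 3 genes with the smallest p per comparison were named, and other genes of those lists were named after their values were seen. A few genes of the lists are not reported here. Same-numbered libraries did not deviate together in any table as a whole (correlations -0.17 to 0.22), so no pairing was used.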

Additional observations from a re-analysis of the deposited data

Results flagged for a closer look

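The knockout effects on Adgre1 and Ms4a7 differed between whole lungs at 6 months and at 6 days by a test of the difference itself. For Adgre1 the log2 change was 1.91 at 6 months and 0.63 at 6 days, a difference of 1.28 ± 0.18 (SE, adjusted p = 0.00222 from limma effects). For Ms4a7 it was 2.97 and 1.49, a difference of 1.48 ± 0.26 (adjusted p = 0.00373). Adgre1 in control lungs was at 33.6 ± 1.63 TPM at 6 days and 16.6 ± 0.722 TPM at 6 months, and in knockout lungs at 52.8 ± 7.90 and 65.2 ± 6.74 TPM. Ms4a7 in control lungs was at 12.1 ± 2.10 and 8.70 ± 1.92 TPM, and in knockout lungs at 35.7 ± 6.68 and 74.9 ± 15.6 TPM. Time, tamoxifen course and table cannot be told apart in this contrast.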

How the results depend on the processing

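Other settings tried were a filter at 5 TPM or none, a pseudocount of 0.1, scaling by median ratios or quantiles, a fit with no variance trend, library weights, the replicate block, a shared spread for differences, and each library left out. The 6 members higher at 6 months passed under every one, and 0 were lower. Of 2 higher in AT2 cells, 1 passed with the 5 TPM filter, median ratios or no trend, 0 with no filter or quantiles, 3 with weights (Itgam in addition, 1.11, adjusted p = 0.0489), and 0 to 2 with a library left out. Of 2 higher at 6 days, 4 passed with median ratios or quantiles, 7 with weights and 0 to 4 with a library left out; the 0 lower became 1 with weights and 0 to 1 with a library left out. In organoids, 0 became 0 to 1 in either direction with a library left out. The 2 differences between times became 5 with weights and 2 to 4 with a library left out. The 0 differences between AT2 cells and lung became 2 with no filter, 2 with weights and 0 to 1 with a library left out. The cause was not tested.

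With the replicate block the counts of higher members were 2, 2, 6 and 0 in AT2 cells, lungs at 6 days, lungs at 6 months and organoids, and the block changed no member's call. Counts in the context lists under the same settings were added after seeing the data; their counts of 0 in organoids reached at most 4 with a library left out.

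Some effects near 0 changed sign, and none of the reversed values passed. Csf1r at 6 days ran from -0.093 to 0.39 with a library left out, below 0 without control 3, knockout 1 or knockout 2. Cx3cr1 ran from -0.053 to 0.34 at 6 days, below 0 without knockout 1 or 2, and from -0.28 to 0.22 at 6 months, below 0 without control 2 or knockout 3. At 6 months it was -0.017 with quantiles and -0.079 with weights. Its difference between times was above 0 without 6-month knockout 1 (0.023) or 2 (0.14), 6-day control 1 (0.0039), and 6-day knockout 1 (0.071) or 2 (0.061). Ly6c2 in organoids ran from -0.031 to 1.24, the first without control 2. Adgre1 in AT2 cells minus lung was 0.31 with a pseudocount of 0.1, 0.034 with weights, 0.018 without AT2 control 1 and 0.017 without 6-day knockout 1. With 2 to 4 libraries per group and unknown depth, low levels in AT2 cells and organoids carry the least precision.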

Other observations

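Genes most like each member over the 14 whole lung libraries were sought among 13220 genes with a mean of at least 2 TPM. The 8 members, predicted genes (Gm and Rik names) and immune receptor segments were passed over. Genes of the other fixed lists were not. Each table was centred on its own mean, and all points share the genotype contrast. Adgre1 was closest to Lrp12 (Pearson r 0.996) and Mpeg1 (0.993), the latter encoding the pore-forming protein perforin-2 of macrophages. Mpeg1 rose at 6 months from 91.8 ± 6.64 to 474 ± 33.4 TPM (log2 change 2.36, limma adjusted p = 1.66e-09). Ms4a7 was closest to Cd84 (0.993) and to Ctss (0.993), the lysosomal protease cathepsin S, which rose from 275 ± 26.1 to 1859 ± 147 TPM at 6 months (2.75, limma adjusted p = 1.66e-09). Mrc1 was closest to Plet1 (0.985) and Olr1 (0.980), Itgam to Gas2l3 (0.985) and Mfsd12 (0.977), Cd14 to Sh3bp2 (0.993) and Aldoa (0.980), and Csf1r to Mpnd (0.963) and Rnpep (0.962).

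Cx3cr1 was closest to Rasgrp1 (0.916) and Vasp (0.895), and neither of these passed in whole lung at either time (limma adjusted p 0.713 to 0.853). The values for Ly6c2 were lower, at 0.833 for Hint2 and 0.744 for Spryd7. Gas2l3 rose at 6 months from 0.633 ± 0.0949 to 4.42 ± 0.761 TPM (log2 change 1.72, limma adjusted p = 3.73e-06) and did not pass at 6 days (adjusted p = 0.104).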
